A study of Arabidopsis thaliana with 16 samples.

Results

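Accessible chromatin of the Arabidopsis protoderm was compared with that of the early stomatal lineage, which here means meristemoid mother cells and meristemoids as 1 side. The comparison used 10 of the 16 libraries of the series, 3 from protoderm (Proto), 3 from meristemoid mother cells (MMC) and 4 from meristemoids (M), and all 65351 transposase hypersensitive sites (THSs) of the deposited table. A THS is a stretch of chromatin that the Tn5 transposase of ATAC-seq enters readily. The remaining 6 libraries, 3 from guard mother cells (GMC) and 3 from guard cells (GC), entered only the estimate of the spread and a few values given for orientation. THSs within 3000 bp upstream of AtML1, SPCH and MUTE were kept apart, which left 65342 of the 65351, with 9 in the promoters.

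Nuclei were captured by INTACT, in which a promoter of choice drives a tag on the nuclear envelope that is biotinylated and bound to streptavidin beads. The AtML1 promoter drove the tag in the Proto line, the SPCH promoter in the MMC line and the MUTE promoter in the M line, and all seedlings were 3 days old and grown under continuous light. The groups therefore differ in the transgene as well as in the cells captured, and the transgene carries a further copy of its promoter. According to the study, AtML1 activity persists at a modest level in stomatal-lineage cells and the SPCH line also marks early meristemoids. The MUTE line marks late meristemoids on their way to guard mother cells, so M here stands for the end of the meristemoid phase. The groups are thus enriched for their states rather than pure.

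The protoderm is the outermost layer of the young shoot, and some of its cells enter the stomatal lineage when the basic helix-loop-helix protein SPEECHLESS (SPCH) becomes active with its partner SCREAM. Such a cell, the meristemoid mother cell, divides asymmetrically and gives a meristemoid, which renews itself by further asymmetric divisions until MUTE ends this phase and makes it a guard mother cell. AtML1, a homeodomain protein of the HD-ZIP IV family, specifies the epidermis as a whole. GA dinucleotide repeats in plant promoters are bound by the BASIC PENTACYSTEINE (BPC) proteins, which can recruit Polycomb repressors.

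All 5 THSs called higher in MMC and M outside the promoters carried GA dinucleotide repeats, so the sequences of 3 of them are printed first. They are the plus strand of the TAIR10.1 reference of RefSeq, 5′ to 3′, and a repeat of GA reads as CT where it lies on the other strand. Capitals mark unbroken alternation of G with A, or C with T, over 8 or more bases.
THS_19073, chr2:6002287-6002449, intergenic: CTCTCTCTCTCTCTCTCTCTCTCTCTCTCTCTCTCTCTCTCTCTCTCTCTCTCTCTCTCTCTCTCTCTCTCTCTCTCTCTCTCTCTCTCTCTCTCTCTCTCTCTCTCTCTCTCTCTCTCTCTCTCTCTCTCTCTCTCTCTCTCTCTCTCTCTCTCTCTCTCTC
THS_41525, chr4:5360886-5361101, intergenic: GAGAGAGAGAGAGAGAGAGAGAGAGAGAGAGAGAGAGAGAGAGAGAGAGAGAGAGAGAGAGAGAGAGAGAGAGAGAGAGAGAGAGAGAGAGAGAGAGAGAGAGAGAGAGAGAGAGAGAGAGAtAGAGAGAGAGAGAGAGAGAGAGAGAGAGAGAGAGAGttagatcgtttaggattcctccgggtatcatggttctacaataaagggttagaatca
THS_23375, chr2:13095009-13095308, the stretch of the THS that holds no exon: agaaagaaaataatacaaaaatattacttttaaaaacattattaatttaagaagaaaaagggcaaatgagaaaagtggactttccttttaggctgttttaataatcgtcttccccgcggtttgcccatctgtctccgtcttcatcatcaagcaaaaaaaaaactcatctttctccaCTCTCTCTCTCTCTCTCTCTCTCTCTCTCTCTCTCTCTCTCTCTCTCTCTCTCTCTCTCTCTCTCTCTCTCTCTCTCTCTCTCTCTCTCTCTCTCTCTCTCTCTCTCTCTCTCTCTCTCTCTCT
THS_41526, chr4:5363197-5363381, the next THS along chromosome 4 after THS_41525, shown because its level lay on the opposite side: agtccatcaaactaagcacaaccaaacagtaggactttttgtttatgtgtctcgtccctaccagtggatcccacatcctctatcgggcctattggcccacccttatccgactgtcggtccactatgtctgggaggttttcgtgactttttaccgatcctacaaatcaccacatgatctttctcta

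The printed sequence of THS_19073 is a CT repeat from its first base to its last, 163 bp long. THS_41525 opens with 122 bases of GA repeat, and its neighbour THS_41526 has no run of 8 bases. THS_23375, 420 bp in full, holds a CT run of 194 bases, part of which lies beyond the printed stretch. THS_44063, which lies over a transcribed but untranslated exon and is not printed, holds a CT run of 76 bases. THS_35219 differs from these 4 in that its longest unbroken run is only 14 bases, in the class of 12 to 19 bases that 1148 THSs share.

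The values are cutcounts, the transposition events counted on a THS, divided by 1 size factor per library, and are called scaled cutcounts. Differences were tested with limma on log2(scaled cutcounts + 1), and fold changes are on that scale, which understates changes of low THSs. A THS was called when its Benjamini-Hochberg adjusted p, over all 65351 THSs, was under 0.05. Outside the promoters, 5 THSs were higher in MMC and M than in Proto (0.00765% of those tested) and 0 were lower (0% of those tested). At an unadjusted p under 0.05 there were 3410 higher THSs, or 5.22%, and 3601 lower THSs, or 5.51%. The log2 fold change of the middle 90% of THSs lay between -0.66 and 0.50, beside a median SD of 0.40 within a state. Only 66 THSs exceeded a log2 fold change of 1 and 478 fell below -1.

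The largest of the 5 differences was at THS_19073 on chromosome 2, which lies 16190 bp upstream of the start of AGL44, a MADS-box gene. Its scaled cutcounts were 7.13, 5.36 and 17.6 in the 3 Proto libraries, 79.0, 83.6 and 71.6 in MMC, and 38.4, 47.0, 32.7 and 55.8 in M. Every MMC and M library lay above every Proto library, and the MMC libraries lay above all M libraries. The Proto mean of 10.02 ± 6.60 (SD, n = 3) compared with 78.1 ± 6.08 (SD, n = 3) for MMC. For M the mean was 43.5 ± 10.1 (SD, n = 4). Over Proto, the early lineage had a log2 fold change of 2.57 ± 0.31 (SE; limma, adjusted p = 0.000109). In GMC and GC the values ran from 11.5 to 33.9, and the difference of those states from Proto did not pass the test (log2 fold change 1.05, limma adjusted p = 0.525).

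THS_41525 on chromosome 4 lies 4508 bp upstream of AT4G08450, which encodes a disease resistance protein of the TIR-NBS-LRR class. It had 41.8, 51.3 and 74.2 scaled cutcounts in Proto, 155, 275 and 212 in MMC, and 107, 221, 161 and 220 in M. No MMC or M library reached down to the Proto range, and the lowest of them was M 1. The log2 fold change was 1.78 ± 0.25 (SE; limma, adjusted p = 0.00156). The call was lost when either Proto 1 or Proto 2 was left out, the adjusted p rising to at most 0.149. The values of THS_41525 in GMC and GC ran from 82.8 to 172, all above those of Proto. For those states over Proto, THS_41525 had a log2 fold change of 1.16 and did not pass (limma, adjusted p = 0.525). Its neighbour THS_41526, whose centre is 2296 bp away, had 61.1, 53.6 and 69.6 scaled cutcounts in Proto, 19.8, 39.4 and 15.6 in MMC, and 49, 36, 36.8 and 31.5 in M. All 7 libraries of the early lineage lay below those of Proto there, but the log2 fold change of -1.02 ± 0.24 did not pass (limma, adjusted p = 0.307).

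THS_23375 on chromosome 2 has its centre 98 bp upstream of AT2G30740, a gene of the protein kinase superfamily. Its scaled cutcounts were 67.2, 62.1 and 85.9 in Proto, 226, 205 and 212 in MMC, and 140, 195, 172 and 251 in M. The groups did not overlap, and the level in GMC and GC, 77.6 to 94.4, was near that of Proto. The log2 fold change was 1.47 ± 0.20 (SE; limma, adjusted p = 0.00045). Along with THS_19073 and THS_41525 it was also called in MMC against Proto and in M against Proto taken singly. These 3 THSs were the only calls outside the promoters in either of those comparisons, which share the Proto libraries, while at an unadjusted p under 0.05 there were 4811 and 6410. Between MMC and M, 0 THSs outside the promoters were called by limma. Of the same 65342, 1683 had an unadjusted p under 0.05, a share smaller than 0.05 itself.

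THS_35219 lies on chromosome 3 between genes, 3528 bp downstream of the start of HB34, a zinc finger homeodomain gene. It had 86.6, 53.6 and 93.1 scaled cutcounts in Proto, 201, 215 and 173 in MMC, and 118, 208, 219 and 316 in M. The log2 fold change was 1.39 ± 0.24 (SE; limma, adjusted p = 0.0185). In GMC the values ran from 55.0 to 80.4, within the Proto range, and in GC from 98.4 to 111, above it. THS_44063 on chromosome 4 lies over the untranslated first part of AT4G17950, which encodes a DNA-binding protein with an AT hook. Its scaled cutcounts were 36.7, 23.8 and 29.9 in Proto, 81.7, 72.8 and 77.8 in MMC, and 46.1, 64.2, 92.0 and 118 in M. The log2 fold change was 1.33 ± 0.24 (SE; limma, adjusted p = 0.0325). THS_44063 had 39.4 to 59.1 in GMC and GC, all above Proto, a difference that did not pass (log2 fold change 0.67, limma adjusted p = 0.525). In both THSs all early-lineage libraries lay above Proto, with M 1 the lowest of the 7. These calls were the least firm, THS_35219 being lost under 9 and THS_44063 under 14 of 30 other settings, with an adjusted p of up to 0.776 in each, and both were lost when any 1 Proto library was left out.

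**Figure D1:**
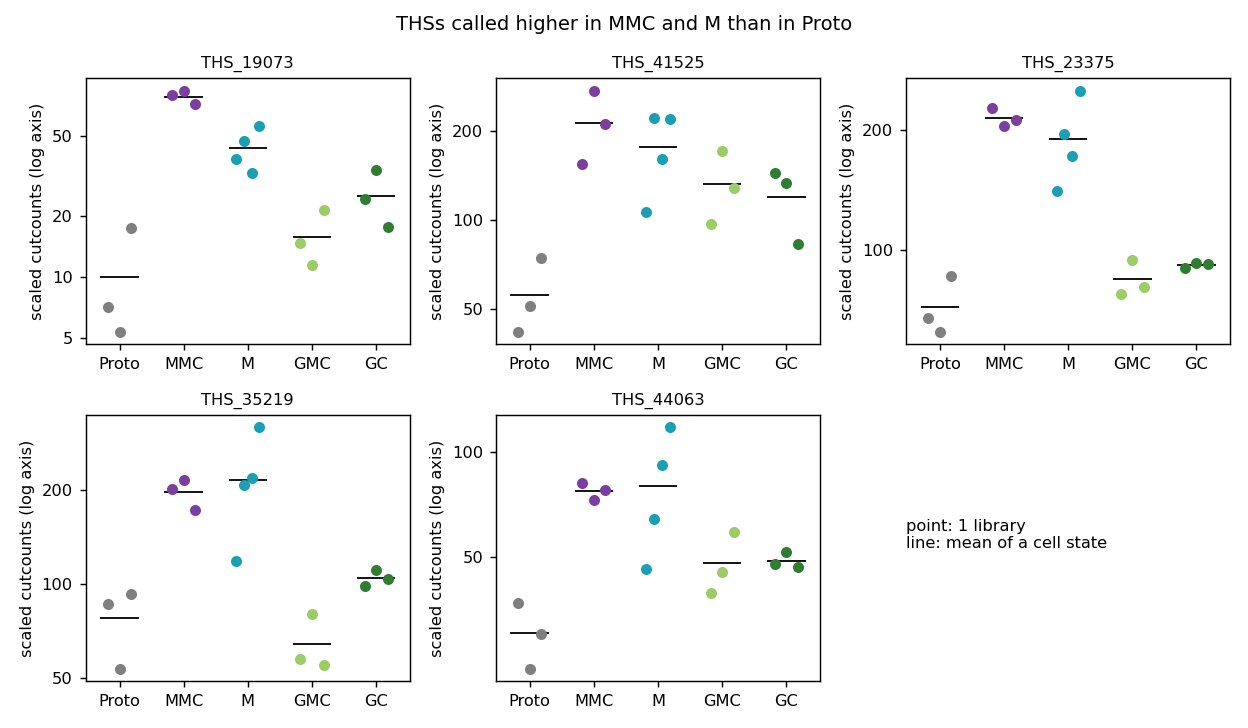
Scaled cutcounts (log axis) of the 5 THSs called higher in MMC and M, 1 panel each, with a point for each library and a line at the mean of each cell state. In every panel the 7 MMC and M points lie above the 3 Proto points. In THS_41525 and THS_44063 all GMC and GC points also lie above those of Proto. In THS_23375 the GMC and GC points lie close to those of Proto. In THS_35219 the GMC points lie within the Proto range and the GC points above it.

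Neighbouring THSs did not share the calls. The 2 THSs on each side of a called THS, taken from 522 to 23319 bp away, gave log2 fold changes between -1.02 and 0.40, and none was called. Around THS_23375 the nearest neighbours, 635 bp and 961 bp away, had log2 fold changes of -0.17 and -0.98 beside 1.47 at the THS itself. At THS_19073 the closest neighbour lay 14868 bp away. The called THSs were picked by the test and their neighbours were not, so the extent of the difference in space is not resolved.

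Long GA repeats were then looked at across all THSs, a grouping chosen after the 5 sequences had been seen and therefore given without a test. The word GAGAGAGA, on either strand, lay within the central 150 bp of 2378 of the 65342 THSs, or 3.64%, and of all 5 called THSs. By the longest unbroken run of the GA repeat anywhere in the THS, the median log2 fold change was -0.02 in the 59377 THSs with runs under 8 bases and 0.13 in the 4647 with 8 to 11 bases. It was 0.20 in the 1148 THSs with 12 to 19 bases, 0.31 in the 154 with 20 to 49 bases and 0.68 in the 16 with 50 or more bases. The share at an unadjusted p under 0.05 in the upward direction went from 4.87% in the first of these classes to 19.5% and 62.5% in the last ones, and 0 THSs with runs of 20 bases or more were lower at that threshold. In GMC and GC against Proto the same 5 classes had medians from -0.15 to 0.04. Level also differed, the median THS having a mean of 49.5, 98.8, 123, 109 and 165 scaled cutcounts in these classes. Over all THSs the log2 fold change was higher at high level and near gene starts, as given further below. The part of level and position in the medians by run length was not tested.

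Of the 16 THSs with a run of 50 bases or more, 4 were those already named and 12 were not called. All 12 had a log2 fold change above 0, with a median of 0.46, and 6 of them had an unadjusted p under 0.05. The 16 runs measured 51 to 194 bases, and 10 of the 16 THSs had a gene start within 400 bp of their centre. One such promoter belongs to MYB94, a regulator of cuticular wax synthesis, whose THS_36568 had a run of 78 bases and scaled cutcounts of 304, 255 and 273 in Proto, 333, 324 and 355 in MMC, and 157, 364, 470 and 675 in M. Here M 1 lay below every Proto library and the log2 fold change of 0.35 did not pass (limma, adjusted p = 0.646). In THS_38699, with a run of 81 bases and its centre 145 bp upstream of AT3G55960, the log2 fold change was 0.71 (limma, adjusted p = 0.393).

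Within each library, the median log2 value of the 16 THSs with long runs was set against that of the THSs with runs under 8 bases. The difference was 0.93, 1.22 and 1.37 in Proto, 1.91, 1.93 and 2.17 in MMC, and 1.33, 1.94, 1.87 and 2.37 in M. It ran from 0.82 to 1.36 in GMC and GC. The library M 1 thus lay in the Proto range and the other 6 libraries of the early lineage lay above it. The 16 THSs include the 4 called ones, picked for a higher level in MMC and M. Part of this separation therefore follows from the choice, and library values without the 4 are not given. Runs of AC or GT were far rarer. In the 25 THSs with 20 to 49 bases of them the median log2 fold change was 0.23. At an unadjusted p under 0.05, 24% of these 25 were higher and 0 were lower, beside 19.5% and 0 for GA runs of that length. In the 100 THSs with AT runs of that length the median was 0.07, with 5% higher and 1% lower. The reference chromosomes hold 101 GA runs of 50 bases or more, so reads lying wholly within such a run match more than 1 place. The study's paired reads were each shorter than 50 bases, so shorter runs, not counted here, can also hold a whole read. The study mapped reads with Bowtie2 and names removal of centromeric reads only, without saying how reads with several matches were treated. Cutcounts inside a long run may therefore not belong to that THS alone, above all at THS_19073, which is a repeat throughout. THSs with long runs may also share such reads, so they may not be independent places. The part of this in the difference was not tested.

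**Figure D2:**
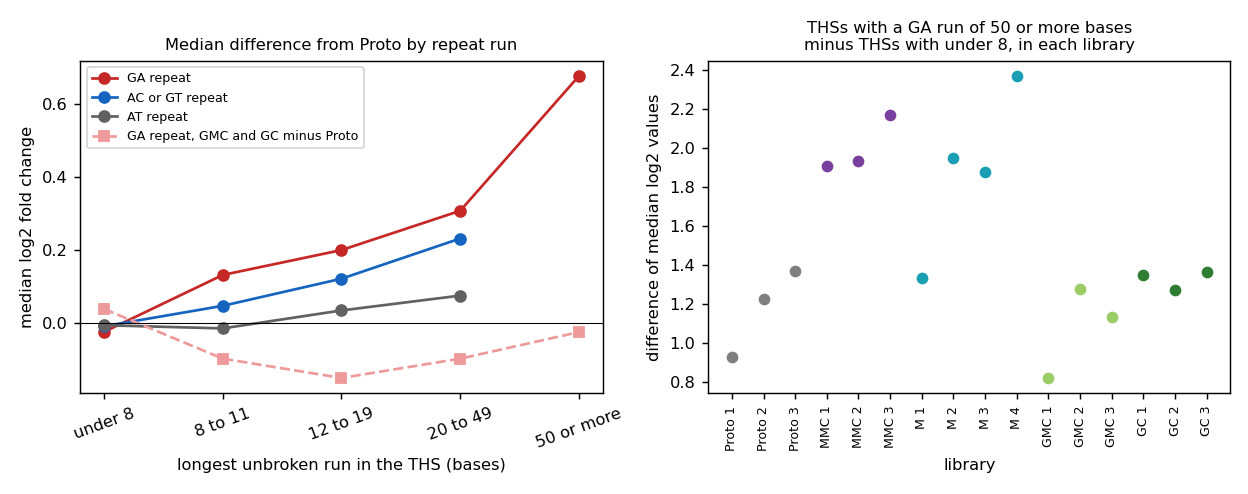
Left, median log2 fold change of MMC and M over Proto by the longest unbroken repeat run in a THS (bases), for GA, for AC or GT and for AT repeats, with GMC and GC over Proto as a dashed line for GA. Right, median log2 value of THSs with GA runs of 50 or more bases minus that of THSs with runs under 8 bases in each of the 16 libraries, where 6 of the 7 MMC and M libraries lie above 1.8 and M 1 lies at 1.33. The THSs with 50 or more bases include 4 that were called higher in MMC and M.

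The libraries themselves spread unevenly, which bears on every count. Total cutcounts on THSs, recovered from the size of the steps in each library, lay between 3412226 and 13596509. The median log2 value of THSs within 400 bp upstream of a gene start, minus that of THSs in coding exons, was 0.68, 0.71 and 0.58 in Proto, 0.86, 0.37 and 1.87 in MMC, and 0.40, 1.099, 1.13 and 1.72 in M. MMC 2 and M 1 lay below all Proto libraries and the other 5 lay above them. In GMC and GC the same measure ran from -0.03 to 0.37, also below Proto. The mean was 0.66 ± 0.07 (SD, n = 3) in Proto and 1.07 ± 0.58 (SD, n = 7) in the early lineage, and a two-sided exact permutation test over the 120 splits gave p = 0.275, where the smallest possible p is 0.00833. The share of all signal in the 5% of THSs with the most cutcounts was 30.9% ± 2.7 (SD, n = 3) in Proto and 33.6% ± 2.3 (SD, n = 7) in MMC and M (two-sided exact permutation test, p = 0.142). The deviation of a library from the mean of the 3 states correlated on average at 0.20 within Proto but at -0.27 within MMC and -0.13 within M. MMC 2 and M 1 correlated with Proto at 0.24 and 0.27, and the other 5 at -0.12 or below. Because the subtracted mean comes from the same libraries, such correlations lie below 0 on average, so a negative value alone does not show disagreement.

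The count of calls rested on MMC 2 and M 1. Without MMC 2 there were 157 higher and 500 lower THSs, and without M 1 there were 116 higher and 47 lower. Leaving out any 1 other library gave between 2 and 6 higher THSs and 0 lower ones. With both left out, a choice made after seeing the data, 3367 THSs were higher (5.15%) and 4459 lower (6.82%), and all 5 THSs called with the full set were among them. By correlation these 2 libraries are the early-lineage libraries most like Proto, so that their removal may by itself enlarge the difference. On the upstream against exon measure they lay below Proto, on the side of GMC and GC. With all libraries kept, array weights gave 2938 higher and 3344 lower THSs. Signal concentration, the share of signal in the top 5% of THSs, gave 1402 and 3619 as a covariate. The cause of the rise was not tested, and the larger counts are given as a description only.

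**Figure D3:**
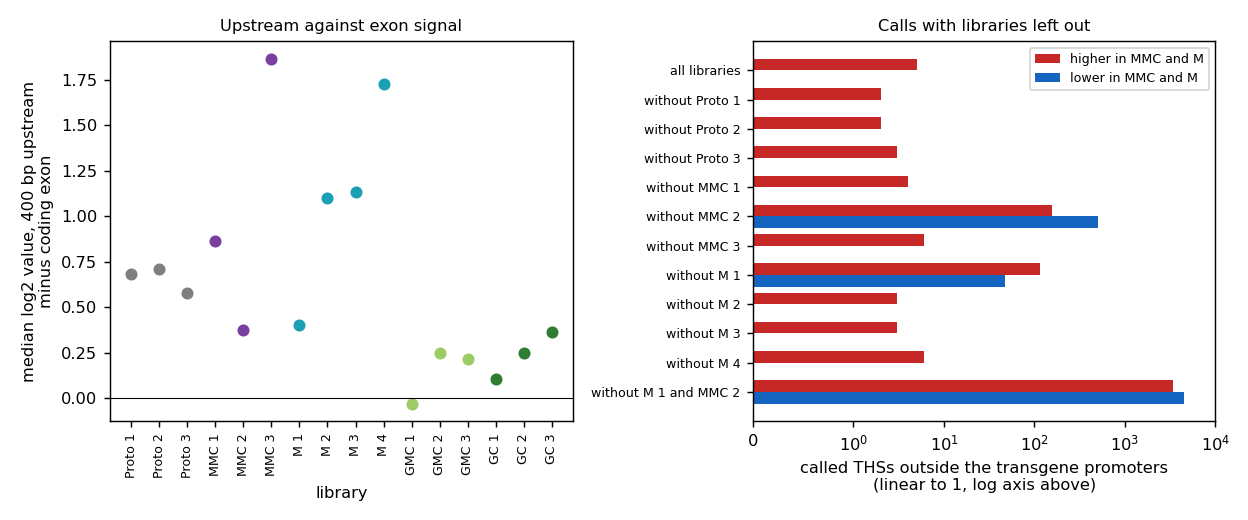
Left, median log2 value of THSs within 400 bp upstream of a gene start minus that of THSs in coding exons, 1 point for each of the 16 libraries, with MMC 2 and M 1 below all Proto libraries and MMC 3 and M 4 highest. Right, number of called THSs outside the promoters with all libraries and with libraries left out (linear to 1, log axis above), rising from 5 higher and 0 lower to 3367 and 4459 without M 1 and MMC 2.

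The median difference varied with the position of a THS. The median log2 fold change was 0.13 in the 12970 THSs within 400 bp upstream of a start and 0.10 in the 12449 over untranslated exons. It was -0.05 in the 23372 intergenic THSs, -0.11 in the 1863 over non-coding genes, -0.14 in the 4092 over introns and -0.21 in the 10596 over coding exons. By mean level, the lowest 20% of THSs had a median of -0.22 and the highest 20% one of 0.16. By chromosome the medians lay between -0.02 and 0.01. The upstream against exon measure of the libraries is built from 2 of these classes, so their medians largely restate it. Between the groups that measure did not pass (two-sided exact permutation test, p = 0.275), and MMC 2 and M 1 lay below all Proto libraries on it. Position and level vary together, and their separate parts in these medians were not tested.

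In 930 THSs (1.42%) all 7 MMC and M libraries lay above all 3 Proto libraries, and in 783 THSs (1.2%) all lay below. Were the order of the libraries random, 1 of the 120 splits would give each pattern, a proportion of 0.00833. A large part of each set can thus arise without any difference between the groups. The first set held 26.6% THSs within 400 bp upstream of a start and 31.2% over untranslated exons, beside 19.8% and 19.1% of all THSs. The second set was more often intergenic, with 45.5% beside 35.8%, and its centres lay at a median of 1322 bp from the nearest start, against 348 bp in the first set and 778 bp over all THSs. Of short words within the central 150 bp, searched on both strands, GAGAGAGA was present in 6.99% of the first set (95% confidence interval 5.43 to 8.82, exact binomial) and 2.43% of the second (1.47 to 3.76), against 3.64% of all THSs. The G-box CACGTG was present in 9.89% (8.05 to 11.99) and 2.55% (1.57 to 3.92), against 5.86%. The word GGGCCC, which resembles the core bound by TCP factors, was present in 3.23% (2.19 to 4.57) and 0.383% (0.0791 to 1.12), against 1.32%. ABRE-like words, ACGTGG or ACGTGT, which can overlap the G-box, were present in 18.7% and 10.1%, against 13.7%. For the L1 box (TAAATGCA or TAAATGTA), to which HD-ZIP IV proteins such as AtML1 bind, the interval of each set held the share of all THSs, 2.33%, and the same was true of the telobox AAACCCTA, of AGATAA, of the W-box (TTGACC or TTGACT) and of GAANNTTC. These intervals cover counting error only, and the sets differ in position, whose part in the shares was not tested.

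THSs lower in the early lineage did not pass the test, and the 8 with the smallest p had log2 fold changes from -1.28 to -0.95 and limma adjusted p from 0.169 to 0.313. Among them, THS_26088 lies with its centre 57 bp upstream of AT2G40715, a gene of unknown function, and had 54.0, 92.7 and 78.1 scaled cutcounts in Proto, 23.4, 35.4 and 21.8 in MMC, and 57.6, 38.4, 22.5 and 34.8 in M, so that M 1 overlapped Proto. THS_14440 and THS_14441 are neighbours over coding exons of AT1G69550. THS_06226, 431 bp upstream of FEZ, a NAC factor of root stem cells, had 86.6, 91.2 and 73.5 in Proto, 50.3, 60.0 and 23.3 in MMC, and 49, 47, 42.9 and 38.7 in M. No library of the early lineage reached the Proto range at FEZ, and the values in GMC and GC, 66.7 to 101, were near those of Proto. Its log2 fold change was -0.95 ± 0.23 (SE; limma, adjusted p = 0.313).

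The promoters of the INTACT transgenes, kept apart because each line carries added copies, followed the line from which nuclei were taken. At AtML1, THS_45044 had 1510, 1470 and 1285 scaled cutcounts in Proto, 490, 452 and 576 in MMC, and 301, 540, 511 and 871 in M. The log2 fold change was -1.47 ± 0.25 (SE; limma, adjusted p = 0.0153). THS_45043 and THS_45046 had log2 fold changes of -1.23 and -1.39 (limma, adjusted p = 0.0148 and 0.0143), whereas THS_45042 and THS_45045 of the same promoter had log2 fold changes of 0.13 and -0.39 and did not pass. The calls of THS_45043 and THS_45046 were lost under 7 of 30 other settings each, and that of THS_45044 under 8, with adjusted p of up to 0.298, 0.292 and 0.357 respectively. All 3 were lost when any 1 Proto library or M 3 was left out, and THS_45044 also without MMC 1. The 3 THSs within the AtML1 gene itself gave -0.26, 0.05 and 0.39, none of which passed.

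At SPCH the signal belonged to the MMC line. THS_61260 had 269, 271 and 245 scaled cutcounts in Proto, 5588, 3968 and 4376 in MMC, and 339, 405, 515 and 582 in M. For both states together the log2 fold change came to 2.46 ± 0.22 (SE; limma, adjusted p = 5.86e-07), made up of 4.13 in MMC (limma, adjusted p = 9.25e-11) and 0.78 in M (limma, adjusted p = 0.416). At MUTE it belonged to the M line, where THS_29396 had 2984, 1688, 2352 and 1647 beside 247, 253 and 271 in Proto and 226, 243 and 117 in MMC. MMC and M combined differed there by 1.28 ± 0.24 and did not pass (limma, adjusted p = 0.0725), since only M was high. M 1 had the highest value of all libraries at MUTE, and MMC 2 had 3968 at SPCH, so both libraries were high at the promoter that their labels name. Cutcounts there come from the transgene and the endogenous promoter, which cannot be told apart.

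**Figure D4:**
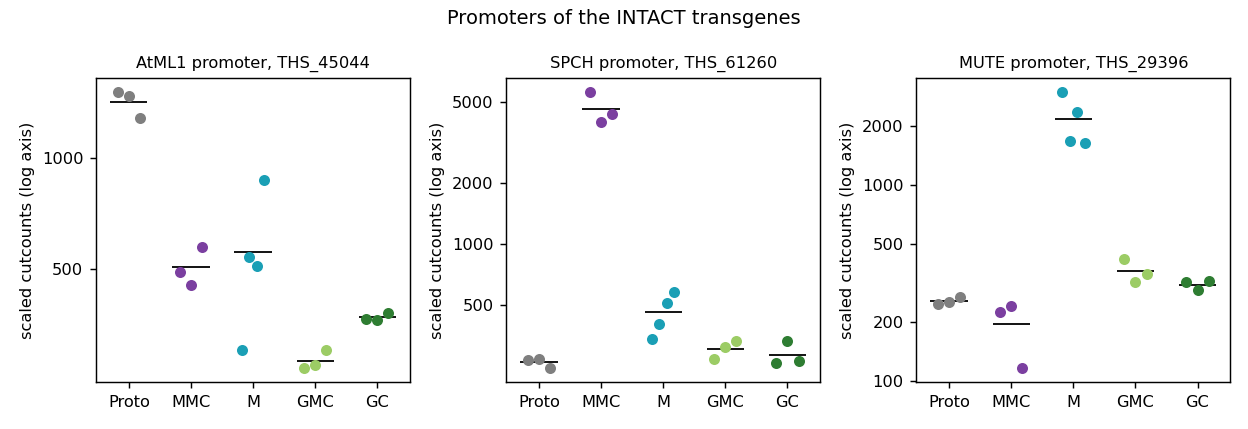
Scaled cutcounts (log axis) of the THS with the most signal in the promoters of AtML1, SPCH and MUTE, with a point for each library and a line at the mean of each cell state. Proto is highest at AtML1, MMC at SPCH (3968 to 5588) and M at MUTE (1647 to 2984), the line that carries each promoter as a transgene.

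Gene lists for the epidermis, the lineage and other tissues were followed through the THSs between 1000 bp upstream of a gene start and its end. Apart from the transgene promoters, 0 THSs of any of the 13 lists were called, against 0.00765% of all THSs in the upward direction. The epidermal identity list holds HD-ZIP IV factors and other genes, such as ACR4, DEK1, PDF1 and GSO1. Of its 23 genes, 20 had a THS. The 75 THSs had a median log2 fold change of 0.09, with 4 higher and 3 lower at an unadjusted p under 0.05. Of all THSs, 5.22% were higher and 5.51% lower at that threshold, which is the background for the counts of every list. THS_59614, upstream of HDG5, had 132, 148.6 and 187 scaled cutcounts in Proto, 195, 200 and 258 in MMC, and 140, 199, 280 and 376 in M, and its log2 fold change of 0.54 did not pass (limma, adjusted p = 0.436). The cuticle and wax list had a median of 0.10 over 126 THSs, with 7 higher and 5 lower at that threshold (5.22% and 5.51% of all THSs), and the trichome and root hair list a median of -0.06 over 49 THSs, with 2 higher and 4 lower.

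For stomatal lineage initiation and patterning, 26 of 28 genes had 80 THSs, with a median of 0.09, 4 higher and 7 lower at an unadjusted p under 0.05. Upstream of ERECTA, the receptor kinase that restricts stomatal initiation, THS_22033 had 58.1, 78.9 and 65.7 scaled cutcounts in Proto, 141, 71.8 and 188 in MMC, and 82.6, 131, 141 and 230 in M. MMC 2 fell among the Proto values there while the other 6 libraries lay above them, and the log2 fold change of 0.95 ± 0.27 did not pass (limma, adjusted p = 0.382). THS_24508 in a coding exon of BRXL1, a polarity gene, lay on the other side at -0.94 ± 0.35 (limma, adjusted p = 0.398). The guard cell list had a median of 0.06 over 41 THSs, and its smallest p was at THS_44069 of ALMT12, an anion channel of guard cells (log2 fold change 0.71, limma adjusted p = 0.382).

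The cell cycle list had a median of 0.13 over 59 THSs, with 8 higher and 3 lower at an unadjusted p under 0.05, beside 5.22% and 5.51% of all THSs. It was the highest of the 13 medians with all libraries, but without M 1 and MMC 2 it was 0.16 and the cuticle and wax list was highest at 0.22. Upstream of SMR4, an inhibitor of cyclin-dependent kinases that acts in the stomatal lineage, THS_50491 had 173, 182 and 211 scaled cutcounts in Proto, 339, 219 and 417 in MMC, and 234, 352, 372 and 394 in M. All early-lineage libraries lay above Proto, MMC 2 by the least, and the log2 fold change was 0.77 ± 0.23 (SE; limma, adjusted p = 0.382). At the mitotic cyclin CYCB1;4 the coding-exon THS_22176 had 101, 133 and 134 in Proto, 64.7, 125 and 31.1 in MMC, and 93.1, 71.3, 57.2 and 53.6 in M (log2 fold change -0.89, limma adjusted p = 0.382).

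Lists for other tissues checked what else the nuclei could hold. The 29 THSs of root tissue genes had the lowest median, -0.21, with 0 higher and 3 lower at an unadjusted p under 0.05, and the 48 THSs of vasculature genes had a median of -0.13, with 2 higher and 10 lower, beside 5.22% higher and 5.51% lower of all THSs. Among the latter, THS_10102 in a coding exon of ATHB15 had 56.0, 60.5 and 61.8 scaled cutcounts in Proto, 24.2, 73.8 and 20.2 in MMC, and 45.1, 38.4, 26.6 and 25.95 in M, with MMC 2 above all Proto libraries. Summed over the list, vasculature THSs took 4.65 to 4.98 of every 10000 cutcounts in Proto, 4.15 to 4.47 in MMC and 4.01 to 4.55 in M. For root tissues the ranges were 3.61 to 4.16, 3.33 to 3.64 and 3.28 to 3.71. Mesophyll photosynthesis genes took 19.3 to 22.9 in Proto, 21.1 to 22.5 in MMC and 15.2 to 24.7 in M, and their 69 THSs had a median of 0.04. Chromatin can be open at a gene that a cell does not express, so these shares describe accessibility and not the makeup of the nuclei.

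The remaining lists showed no call either. Shoot meristem and leaf polarity genes had a median of 0.08 over 40 THSs, stress and touch response genes 0.06 over 94, constitutive genes 0.10 over 37, and the BPC genes themselves -0.03 over 20. Over all THSs outside the promoters the median was -0.01.

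**Figure D5:**
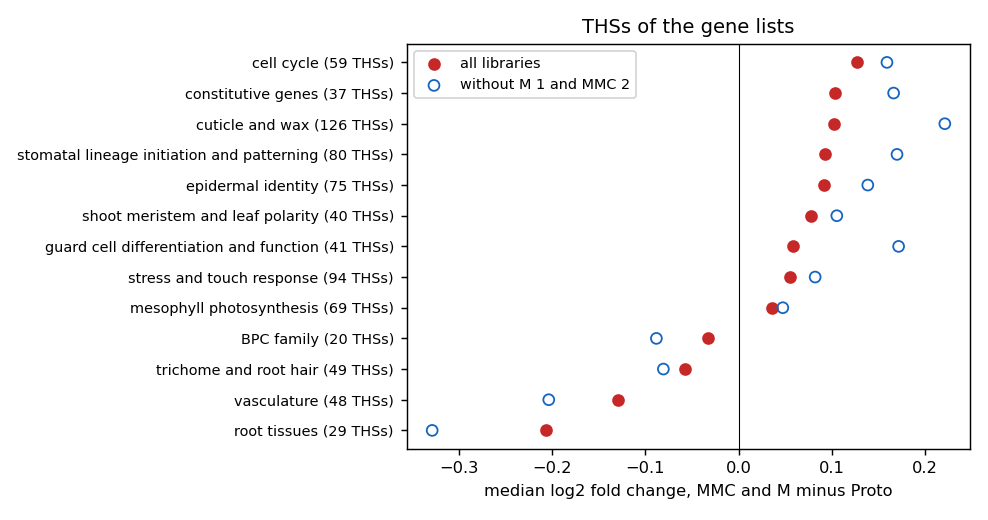
Median log2 fold change of MMC and M over Proto for the THSs of each of 13 gene lists, with the number of THSs in brackets, for all libraries (filled) and without M 1 and MMC 2 (open). The medians run from -0.21 for root tissues to 0.13 for the cell cycle and lie further from 0 in all 13 lists once the 2 libraries are left out.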

How the data were processed

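ATAC-seq was performed on INTACT nuclei of 5 cell states in 16 libraries, of which 10 entered the comparison. According to the methods, reads were mapped to TAIR10 with Bowtie2, reads in centromeric regions were removed, and cut positions were taken from the ends of fragments under 2000 bp. Peaks were called with MACS2 and merged with published open regions. The signal values deposited by the authors are cutcounts per THS scaled by a DESeq2 size factor for each library. Within each library, at least 99.995% of values were whole multiples of 1 step (tolerance 0.01). A count test was not run, because in several libraries no THS held a single cutcount. In the deposited file, 1 column matched no library and was not used.

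Members and lists were chosen with earlier results of these data known. Values were fitted as log2(value + 1) by limma (version 3.58.1, R 4.3.3). The 5 states each had their own mean, trend and robust were set, and no THS was filtered out. Each library counted once, and no pair of libraries agreed within sampling noise. The step was tested on simulated counts with known fold changes that varied independently between THSs. They held no library-wide deviations such as those of MMC 2 and M 1, so that test does not bear on the effect of those libraries. Named THSs are those of the promoters, up to 12 called in each direction by fold change with all 7 libraries on 1 side of Proto and a mean of at least 20 scaled cutcounts, the 8 with the smallest p where fewer than 5 were called, and the 3 with the smallest p in each list. Other THSs were named after their values were seen, as were the classes of repeat length. THS starts were raised by 1 to count from 1. Genes came from RefSeq TAIR10.1. Each THS was given 1 place by its centre, in the order coding exon, untranslated exon, 400 bp upstream of a protein-coding gene, intron, non-coding gene and intergenic. Alternatives covered pseudocounts, a level filter, scaling, the libraries fitted, covariates and weights. Data were read with the R package data.table (version 1.17.8), Python 3.11.15, pandas 2.3.3 and numpy 2.4.6, and figures were drawn with matplotlib 3.10.9. The sequence of 1 called THS is not reported here.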

Additional observations from a re-analysis of the deposited data

Results flagged for a closer look

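Of 62 values examined in the 4 M libraries, 5 had a library far from the other 3 (Dixon's test), where chance gives about 1 in 20. M 4 stood apart at THS_45045 in the AtML1 promoter with 108 scaled cutcounts and at THS_58304 of BPC6 with 30.9. M 1 stood apart at THS_40757 of ETC3 with 47.0, at THS_17442 of APL with 18.2 and at THS_63233 of EF1A with 64.3.

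The 3 promoter THSs differed between MMC and M by the limma contrast of the states. The log2 difference of MMC minus M was -3.49 at THS_29396 of MUTE, and at SPCH it was 3.35 at THS_61260 and 3.41 at THS_61261.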

How the results depend on the processing

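The 5 THSs kept their direction in every setting tried, and THS_19073 and THS_23375 kept their call in all 30. Counts are for THSs outside the promoters. The count of higher THSs was 8 under cyclic loess, 16 under quantile normalization, and 3 with only the 10 libraries, with MMC and M as 1 group, or without trend and robust. It was 1402 with signal concentration as a covariate, 2938 with array weights, 23 with the upstream against exon measure as a covariate and 3367 without M replicate 1 and MMC replicate 2. The count of lower THSs in those last 4 settings was 3619, 3344, 1 and 4459. The last 2 settings were chosen after seeing the data. Leaving out 1 library gave 2 to 157 higher and 0 to 500 lower THSs. For MMC against Proto the main count of 3 became 5 under cyclic loess, 686 with the concentration covariate, 7151 with array weights, 2610 without the 2 libraries and 9 with the upstream covariate, and 1 to 693 without 1 library. For M against Proto it became 5, 4803, 3117, 4662 and 19 in those settings, 10 under quantile normalization, 1 with 10 libraries, 0 without trend and robust, and 0 to 989 without 1 library. For MMC against M the count of 0 became 1375 with array weights and 3 with the upstream covariate, and stayed 0 without 1 library. The concentration difference was 1.25 to 3.96 percentage points without 1 library. The cause of these shifts was not tested.

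With the replicate number as a block, 7 THSs were higher and 0 lower, and 5 differed between MMC and Proto. Same-numbered libraries correlated at 0.23 to 0.40 for replicate 1, -0.01 to 0.16 for replicate 2 and 0.04 to 0.13 for replicate 3, and 5 of 9 libraries correlated best with their own number. Not every pair exceeded 0.1 and the labels give no shared source, so the numbers were not taken to pair the samples.

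Total scaling moved the median log2 fold change of all THSs to -0.13 and gave 4 higher THSs. Promoter THSs that were not called changed sign in some settings. THS_29395 went to -0.0509 (total scaling), -0.0319 (cyclic loess) and -0.0206 (quantile), and lay between -0.0291 and 0.158 without 1 library. THS_45042 went to -0.0173 (cyclic loess), -0.0607 (quantile), -0.0168 (replicate block) and -0.265 (upstream covariate), lay at -0.0201 or above without 1 library, and was 0.41 without M replicate 1 and MMC replicate 2. THS_45045 went to 0.0181 with the concentration covariate. All 26 recomputed list medians moved by less than the SD between libraries. Of 54 recomputed word shares, 4 moved out of the interval of their set. Relative to all THSs they were AGATAA below Proto, 0.92 over the whole THS and 0.84 without the 2 libraries, the W-box below Proto, 0.90 without them, and ABRE-like words above Proto, 1.15 in 300 bp. Depth was lowest in M 3, with 3412226 cutcounts, and MMC 3 held 96 THSs at 0.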
